A study of Mus musculus with 4 samples.

Results

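The transcripts of 10 genes of macroautophagy were followed in cultured mouse mammary cells treated with baicalin, a flavonoid of Scutellaria root, or with its solvent DMSO. They were taken by symbol from the deposited expression table and comprise the cargo receptors Sqstm1 and Nbr1, the ATG8 family members Map1lc3a, Map1lc3b, Gabarap and Gabarapl1, and the core genes Ulk1, Becn1, Wipi1 and Atg5. All 10 were found among the 54446 genes listed, and all 10 were among the 17787 genes with a value above 0 in every library, which form the set tested here.

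Macroautophagy encloses cytoplasmic material in a double membrane and delivers it to lysosomes for degradation. Kinase and lipid kinase complexes start the membrane, a conjugation system attaches ATG8 proteins to it, and cargo receptors bind ubiquitinated material on one side and ATG8 proteins on the other. Receptor and ATG8 proteins are themselves degraded in the process, so a transcript level is neither a protein level nor a rate of autophagy. In the mammary gland the pathway is known from the clearing of the acinar lumen in 3D culture and from involution after lactation.

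RNA was sequenced from 4 libraries, 1 per group. Mammary gland cells of wild type C57BL/6 mice were sorted by flow cytometry, labelled basal cell or luminal cell, grown in Matrigel and given either DMSO or 100 μM baicalin in the medium. All 4 groups thus shared strain, genotype, matrix and medium. The study prepared its primary cells from female mice, virgin or at other stages, but the labels give neither age nor stage for these libraries, and the sources used here do not tell how many mice were pooled or how long the sequenced cultures were treated.

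Levels are given in FPKM, which divides the fragments of a gene by its exon length and by the depth of the library, as deposited by the authors. The fragments behind each library were estimated from the steps of FPKM times exon length. The depth was chosen at which most low genes came out as whole fragments, then refined on higher genes. It was between 19356195 and 20648706 fragments. At these depths between 98.7% and 98.9% of low values came out within 0.05 of a whole number. That share was the quantity fitted, so it is not a separate check of the depth. Differences are log2 of the ratio of FPKM + 1, which understates the change of low genes, and a difference of more than 1, corresponding to 2-fold, was used as the threshold. Ratios are of FPKM. Their exact 95% Clopper-Pearson intervals were taken from the estimated fragments and cover counting error only. With 1 library per group there was no replicate check, no p-value was computed, and baicalin cannot be told apart from any other difference between a pair of cultures.

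The cell labels went against the basal markers and part of the luminal ones. All 10 basal markers, keratins and contractile genes among them, were higher in the luminal-labelled than in the basal-labelled library under DMSO and again under baicalin. Their summed level was 1660 FPKM under DMSO and 428 FPKM under baicalin in the basal-labelled libraries, against 5240 and 6330 FPKM in the luminal-labelled libraries. The 14 luminal markers summed to 4200 and 2900 FPKM in the libraries labelled basal and to 1280 and 1060 FPKM in those labelled luminal, sums carried mostly by Krt8, Krt18 and Epcam. Gene by gene, 5 of the 14 were higher in the luminal-labelled library under DMSO, the way the label says. These were Esr1, Pgr, Foxa1, Gata3 and Csn3, with Pgr at 1.08 FPKM in the basal-labelled and 4.81 FPKM in the luminal-labelled library and Foxa1 at 1.80 and 9.30 FPKM. Under baicalin 2 of the 14, Pgr and Gata3, were higher in the luminal-labelled library. The groups are therefore called by their labels. With baicalin, 9 of 10 basal and 11 of 14 luminal markers were lower in the libraries labelled basal, and 5 of 10 and 12 of 14 in those labelled luminal. In bulk RNA, fewer cells of a type and less RNA per cell cannot be told apart, and the part of these shifts in the values below was not tested. Among markers of other cells, the 4 endothelial markers summed to at most 3.19 FPKM, the 3 adipocyte markers to at most 5.76 FPKM, in the luminal-labelled DMSO library, and the 6 fibroblast markers to at most 10.4 FPKM. Of the immune markers, Ptprc, Cd3e, Adgre1 and Itgam were each at 0 in at least 1 library and at 0.0449 FPKM or less in every library. Cd14 was at 68.9 and 43.9 FPKM under DMSO and baicalin with the basal label and at 10.4 and 8.41 FPKM with the luminal label. Which cells the Cd14 transcripts came from was not tested.

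Sqstm1 was the member with the largest difference with baicalin under both labels. It encodes p62, the receptor that links ubiquitinated cargo to ATG8 proteins and also binds KEAP1, the repressor of the antioxidant factor NRF2. Sqstm1 (ENSMUSG00000015837) lies on the minus strand at chr11:50199366-50210827 of GRCm38. In the libraries labelled basal its level was 205 FPKM under DMSO and 590.1 FPKM under baicalin, a ratio of 2.89 (2.83 to 2.94) and a log2 difference of 1.52. In the libraries labelled luminal it was 110.3 FPKM under DMSO and 237 FPKM under baicalin, a ratio of 2.15 (2.09 to 2.21) and a log2 difference of 1.10. Both baicalin libraries were thus above both DMSO libraries, and under either treatment the library labelled basal was above the one labelled luminal.

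Sqstm1 was also an abundant transcript. Between 7162 and 40166 fragments were estimated for it, so counting error was small beside its difference. By level it was number 154 of the 17787 genes in the basal-labelled DMSO library and number 37 with baicalin. Under the luminal label it was number 314 with DMSO and number 140 with baicalin. A larger absolute difference with baicalin was found in 2.08% of genes under the basal label and in 3.16% under the luminal label. Of its 3356 exon bases, 580 overlap Mrnip on the opposite strand, whose level was between 0.926 and 1.77 FPKM.

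The promoter of Sqstm1 is shown because this gene alone of the 10 passed the threshold with baicalin. The window, chr11:50210771-50211070 on the minus strand, runs from 250 bases before to 50 bases after the RefSeq start (GRCm38.p6). The capitals mark 1 TATA box core (TATAAA) and 3 GC box cores (GGGCGG), both strands searched. The TATAAA letters begin at the last base before the RefSeq start and so lie across the start itself. The 3 GC box cores lie before it. Whether the TATAAA letters act as a TATA box was not tested.
Sqstm1 promoter: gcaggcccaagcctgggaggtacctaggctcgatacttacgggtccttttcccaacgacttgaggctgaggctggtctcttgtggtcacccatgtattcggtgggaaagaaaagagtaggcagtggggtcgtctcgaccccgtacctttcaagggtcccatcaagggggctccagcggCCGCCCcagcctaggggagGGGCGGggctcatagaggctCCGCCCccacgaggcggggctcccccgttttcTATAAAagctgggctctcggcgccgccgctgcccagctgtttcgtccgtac
Of 32851 mouse promoter windows of this length, 13.6% hold TATAAA and 35.7% hold GGGCGG. These 2 motifs were added after the windows had been read. Neither CACGTG, the E-box core of the CLEAR element bound by TFEB, nor TCACGTGA, TGACNNNGC of the antioxidant response element or TGATGNAA of the amino acid response element has a match in the Sqstm1 window, which says only that these letters are not in these 300 bases. They occur in 7.15%, 0.974%, 12.4% and 3.97% of windows, and every TCACGTGA also holds CACGTG.

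Nbr1, the other ubiquitin-binding receptor, differed little with baicalin. This gene (ENSMUSG00000017119) is at chr11:101552149-101581951 on the plus strand. It measured 32.7 and 37.6 FPKM under DMSO and baicalin in the libraries labelled basal, and 28.8 and 29.0 FPKM in those labelled luminal. The ratios were 1.15 (1.10 to 1.20) and 1.01 (0.965 to 1.05), the second with an interval that includes 1. Ratios of the luminal-labelled to the basal-labelled library were 0.880 (0.843 to 0.919) under DMSO and 0.772 (0.741 to 0.804) under baicalin. As the levels of the receptors moved unequally, the FPKM ratio of Sqstm1 to Nbr1 went from 6.26 to 15.7 with baicalin under the basal label and from 3.83 to 8.17 under the luminal label.

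**Figure D1:**
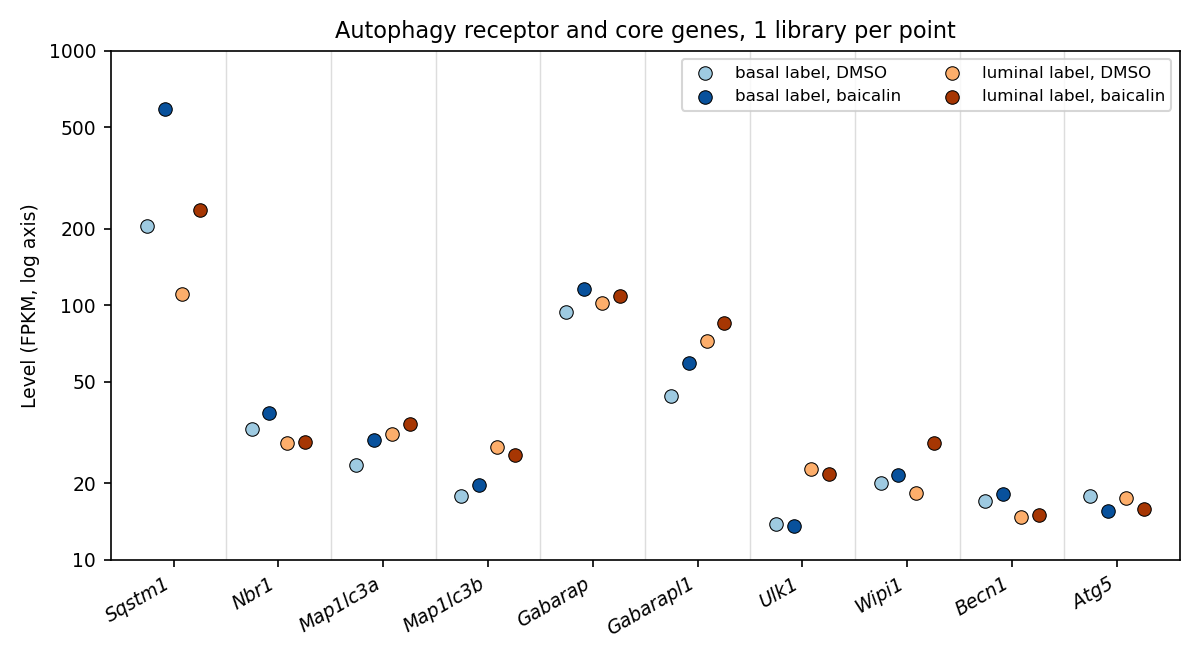
Level of each of the 10 genes in FPKM (log axis), 1 point per library, coloured by cell label and treatment. Sqstm1 reaches 590.1 FPKM in the basal-labelled baicalin library from 205 FPKM under DMSO, while the 4 points of Nbr1 lie between 28.8 and 37.6 FPKM.

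The ATG8 family was represented by 4 members, small ubiquitin-like proteins that are attached to the lipid of the autophagosome membrane. Gabarap and Gabarapl1 belong to one branch, which takes part in late steps of autophagosome formation and fusion, and Map1lc3a and Map1lc3b encode LC3 proteins of the other branch. In the libraries labelled basal all 4 were higher with baicalin, with ratios between 1.11 and 1.34 and no interval reaching 1. With the luminal label 3 of 4 were higher, with ratios between 1.07 and 1.18, and none of the 4 passed the threshold under either label.

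Gabarapl1 had the largest of these ratios. Its levels (ENSMUSG00000030161, chr6:129533160-129542346, plus strand) were 44.1 FPKM under DMSO and 59.3 FPKM under baicalin with the basal label, and 72.5 and 85.3 FPKM with the luminal label. The ratios with baicalin were 1.34 (1.26 to 1.43) and 1.18 (1.12 to 1.24). Both luminal-labelled libraries were above both basal-labelled ones, at ratios of 1.64 (1.55 to 1.75) under DMSO and 1.44 (1.37 to 1.51) under baicalin. Its exons share 570 of 2013 bases with 1700101I11Rik on the opposite strand, which was at 0.337 FPKM or less.

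Gabarap was the most abundant member of the family in every library. This gene (ENSMUSG00000018567, chr11:69991143-69994951, plus strand) measured 93.99 and 116 FPKM under DMSO and baicalin with the basal label, and 102 and 109 FPKM with the luminal label. The ratios were 1.24 (1.18 to 1.29) and 1.07 (1.02 to 1.12). The order of the labels turned with treatment, the luminal-labelled library being higher under DMSO and lower under baicalin, at 1.08 and 0.937 of the basal-labelled level, and the difference between these ratios was not tested.

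Map1lc3a was the member with the fewest fragments in 3 of the 4 libraries, from 552 to 829 over all of them, and its intervals are wide. Its levels (ENSMUSG00000027602, chr2:155276297-155278073, plus strand) were 23.5 and 29.6 FPKM under DMSO and baicalin with the basal label, and 31.1 and 34.0 FPKM with the luminal label. The ratio was 1.26 (1.12 to 1.41) in the libraries labelled basal. In those labelled luminal it was 1.09 (0.988 to 1.21), an interval that includes 1.

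Map1lc3b, which encodes the LC3 form most used as an autophagosome marker, differed in opposite directions under the 2 labels. Levels of this gene (ENSMUSG00000031812, chr8:121590361-121598760, plus strand) were 17.7 FPKM under DMSO and 19.7 FPKM under baicalin with the basal label, a ratio of 1.11 (1.06 to 1.17). With the luminal label they were 27.6 and 25.8 FPKM, a ratio of 0.935 (0.895 to 0.977). Both intervals lie away from 1 by little, and replicate spread, which these libraries cannot give, is not in them. Of 7517 Map1lc3b exon bases, 58 overlap Zcchc14 on the opposite strand, which was between 6.32 and 9.26 FPKM.

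A near-identical copy bears on what was counted for Map1lc3b. Gm6055 (ENSMUSG00000062081), an intronless copy on the minus strand at chr14:48079375-48079752, aligns to 378 bases of the Map1lc3b transcript that form an open reading frame, with a single difference, G206A, counted from the first base of that frame. The 61 bases around it are shown because they hold the only position in the aligned stretch that tells the 2 genes apart, the Gm6055 window being chr14:48079517-48079577 on the minus strand of GRCm38, and the capital marks the differing base.
Map1lc3b: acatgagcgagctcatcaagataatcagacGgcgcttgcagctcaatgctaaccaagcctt
Gm6055: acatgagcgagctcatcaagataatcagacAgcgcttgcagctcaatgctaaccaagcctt
The level listed for Gm6055 was 63.2 FPKM under DMSO and 61.6 FPKM under baicalin with the basal label, and 85.1 and 73.2 FPKM with the luminal label. Those values stand for only 472 to 623 fragments, because the copy is short, and how the authors' counting split reads between the genes is not given in the sources used here. Summed over Map1lc3b and its copies, the fragments gave ratios with baicalin of 1.09 (1.04 to 1.15) and 0.925 (0.888 to 0.964), the same directions as Map1lc3b alone.

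With Gabarapl2, the fifth family member listed here, ATG8 transcripts summed to 198 and 247 FPKM under DMSO and baicalin with the basal label, and to 249 and 270 FPKM with the luminal label. Gabarap made up 47.5% and 47.2% of the sum with the basal label and 40.8% and 40.3% with the luminal label. The share of Gabarapl1 was 22.3% and 24.0%, and 29.1% and 31.5%, respectively. The shares of these 2 genes thus differed more between labels than between treatments. Sqstm1 outgrew the family with baicalin, from 1.03 to 2.39 times the summed ATG8 level under the basal label and from 0.442 to 0.876 times under the luminal label. These sums, shares and multiples depend on the exon length used for each gene. Over its longest coding transcript Map1lc3b was at 50.6 rather than 17.7 in the basal-labelled DMSO library. In the luminal-labelled DMSO library it was at 78.8 rather than 27.6. Fragments listed for Gm6055 are not in the sums.

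**Figure D2:**
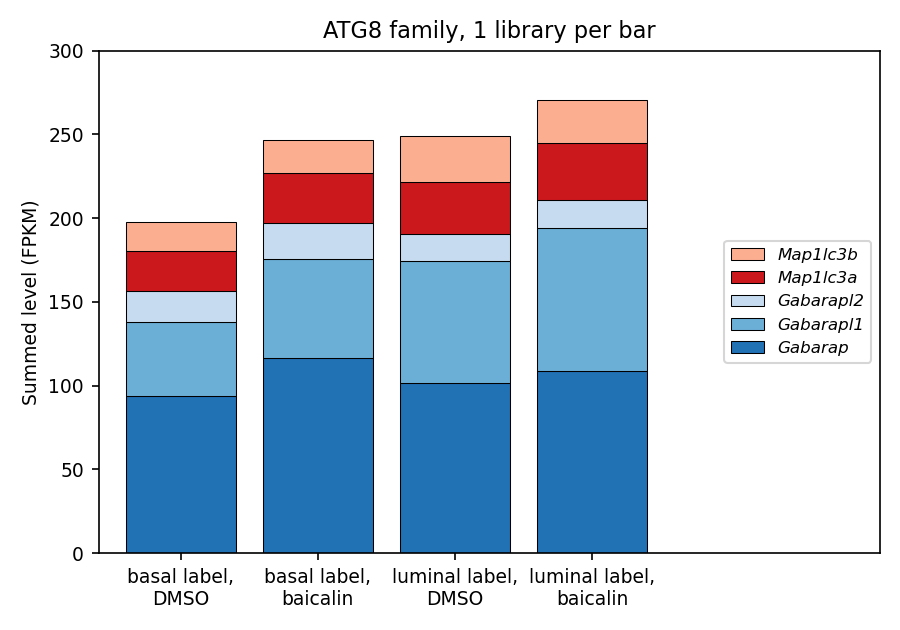
Summed FPKM of the 5 ATG8 family genes in each library, with each gene as a segment of the bar. Segment heights depend on the length used, that of Map1lc3b being per 7517 exon bases. The sum goes from 198 to 247 FPKM with baicalin under the basal label and from 249 to 270 FPKM under the luminal label, and Gabarap is the largest segment in every bar.

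Of the core genes, Wipi1 differed most with baicalin, and it did so mainly under the luminal label. WIPI1 binds phosphatidylinositol 3-phosphate on the growing membrane. Its transcript (ENSMUSG00000041895, chr11:109573331-109611967, minus strand) measured 20.01 FPKM under DMSO and 21.5 FPKM under baicalin with the basal label, a ratio of 1.08 (1.01 to 1.15). With the luminal label it measured 18.3 and 28.9 FPKM, a ratio of 1.57 (1.48 to 1.68) and a log2 difference of 0.63, below the threshold. The luminal-labelled baicalin library was the high one and the other 3 lay within 18.3 to 21.5 FPKM. A larger absolute difference was found in 11.0% of genes in that comparison, and whether the ratios of the 2 labels differ beyond replicate spread was not tested.

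Ulk1 encodes the kinase that starts autophagosome formation and is inhibited by mTORC1. Its levels (ENSMUSG00000029512, chr5:110784488-110810097, minus strand) were 13.8 FPKM under DMSO and 13.6 FPKM under baicalin with the basal label, and 22.8 and 21.8 FPKM with the luminal label. The ratios with baicalin, 0.985 (0.922 to 1.05) and 0.958 (0.909 to 1.01), both have intervals that include 1. The labels separated it instead, with luminal-labelled over basal-labelled ratios of 1.65 (1.55 to 1.75) under DMSO and 1.60 (1.51 to 1.70) under baicalin.

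Becn1 and Atg5 were the flattest in level. Becn1, the scaffold of the class III PI3-kinase complex (ENSMUSG00000035086, chr11:101285952-101302286, minus strand), measured 17.03 and 18.1 FPKM under DMSO and baicalin with the basal label and 14.8 and 15.0 FPKM with the luminal label. Its ratios were 1.06 (1.0 to 1.12) and 1.01 (0.952 to 1.08), and 3104 of its 7065 exon bases overlap Cntd1 on the opposite strand, a gene at 0.199 FPKM or less. Atg5, which is joined to ATG12 to form the enzyme for ATG8 lipidation (ENSMUSG00000038160, chr10:44268358-44364291, plus strand), measured 17.7 and 15.6 FPKM with the basal label and 17.4 and 15.8 FPKM with the luminal label. Atg5 was lower with baicalin under both labels, at ratios of 0.879 (0.795 to 0.972) and 0.909 (0.822 to 1.01), the second with an interval that includes 1.

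The Atg5 promoter is shown as the single window searched with CACGTG, and that of Map1lc3b as the single one with TGACNNNGC. Windows were at hand for 8 of the 10 genes, and those of Map1lc3a and Becn1 were not searched. Capitals mark the motifs of the search and GC boxes, in chr10:44268089-44268388 and chr8:121590188-121590487, both on the plus strand of GRCm38.p6.
Atg5 promoter: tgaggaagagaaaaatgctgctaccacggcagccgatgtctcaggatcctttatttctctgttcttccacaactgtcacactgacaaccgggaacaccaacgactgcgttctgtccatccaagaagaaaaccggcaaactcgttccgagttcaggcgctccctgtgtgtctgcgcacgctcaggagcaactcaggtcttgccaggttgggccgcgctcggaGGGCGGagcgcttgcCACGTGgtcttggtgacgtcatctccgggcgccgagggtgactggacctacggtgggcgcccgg
Map1lc3b promoter: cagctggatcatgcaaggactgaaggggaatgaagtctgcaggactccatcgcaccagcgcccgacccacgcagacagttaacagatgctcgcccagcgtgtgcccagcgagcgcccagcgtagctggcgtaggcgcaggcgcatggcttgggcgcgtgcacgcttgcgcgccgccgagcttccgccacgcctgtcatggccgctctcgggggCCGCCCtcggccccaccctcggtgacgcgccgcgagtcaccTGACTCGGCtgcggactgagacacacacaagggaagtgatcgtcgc
GC box cores numbered 9 in the Wipi1 window, 5 in that of Ulk1 and 2 in that of Gabarapl1. A match is a description of letters and not a binding site.

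**Figure D3:**
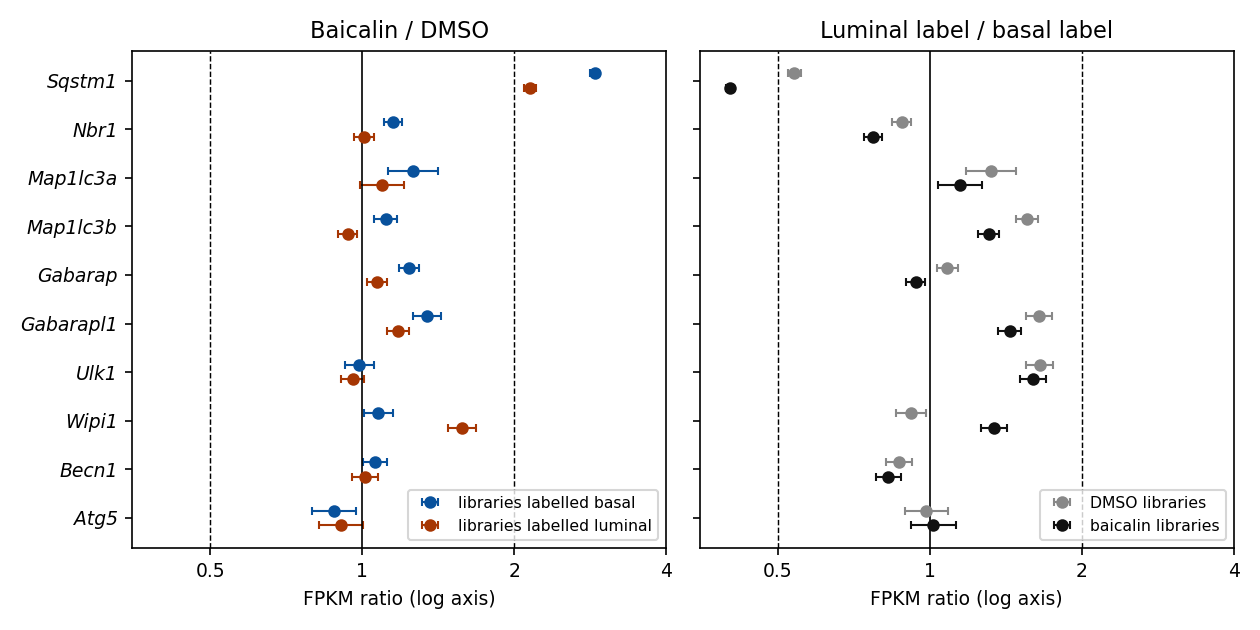
FPKM ratio of each gene (log axis) with its exact 95% counting interval, for baicalin over DMSO by label (left) and for the luminal over the basal label by treatment (right); dashed lines mark 2-fold. In the left panel Sqstm1 alone lies past 2-fold, at 2.89 and 2.15, and Wipi1 under the luminal label follows at 1.57.

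Counted together, the 10 genes differed little with baicalin apart from Sqstm1. In the libraries labelled basal 8 were higher and 2 lower, with a median log2 difference of 0.17 beside 0.01 over all genes tested. The threshold was passed upwards by 1 of 10, against a background of 2.15% of all genes, and downwards by 0 of 10, against 3.33%. With the luminal label 7 were higher and 3 lower, their median being 0.06 beside -0.02 over all genes. There 1 of 10 passed upwards, against 2.37%, and 0 of 10 downwards, against 1.59%. In both comparisons the 1 gene was Sqstm1, and a count of 1 in 10 cannot be read as a property of the group.

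**Figure D4:**
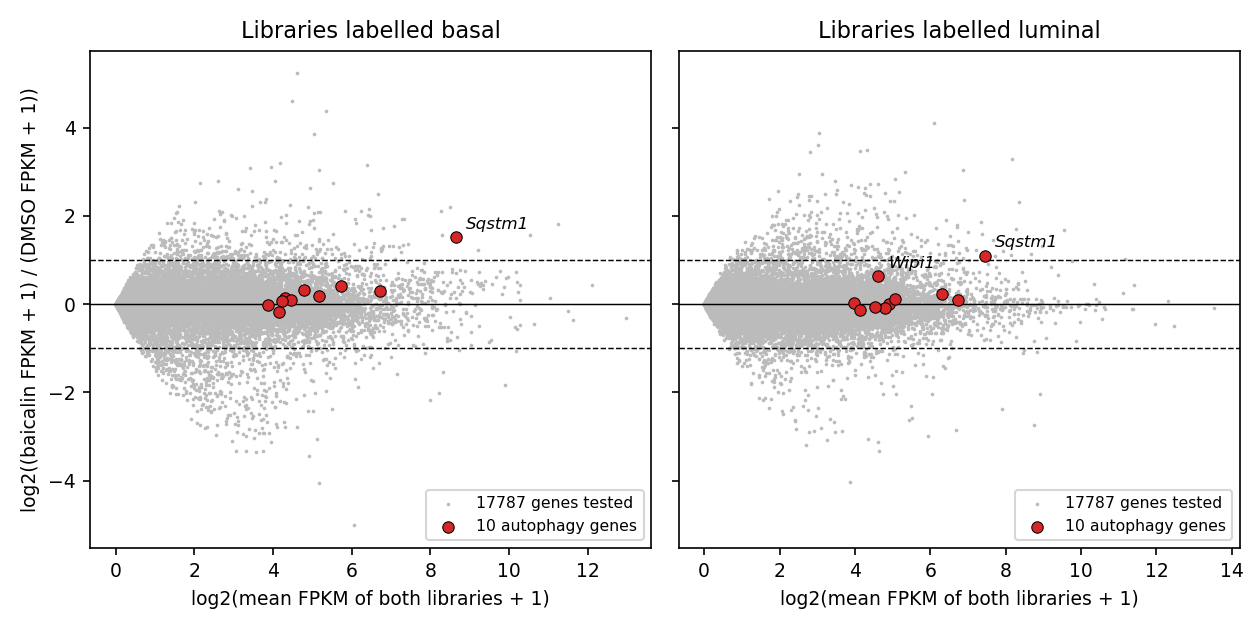
Log2 difference with baicalin against mean level for the 17787 genes tested (grey) and the 10 autophagy genes (red), in the libraries labelled basal (left) and luminal (right); dashed lines mark a difference of 1. Sqstm1 lies above the line in both panels, at 1.52 and 1.10, and the other 9 lie between the lines.

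Between the labels the members split by gene. Under DMSO 5 were higher and 5 lower in the luminal-labelled library, with a median log2 difference of 0.05 that became -0.062 with TPM, beside 0.01 over all genes, and 0 of 10 passed the threshold upwards or downwards, against 4.71% and 3.86% of all genes. Under baicalin 6 were higher and 4 lower at a median difference of 0.11 beside -0.03, and 0 of 10 passed upwards, against 5.24%, and 1 of 10 downwards, against 2.99%. That gene was Sqstm1, at 0.402 (0.394 to 0.409) of the basal-labelled level, after 0.539 (0.524 to 0.555) under DMSO. These comparisons share their libraries with those of baicalin against DMSO and are not independent of them.

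On the FPKM scale, which is per exon length, Sqstm1, Gabarap and Gabarapl1 were the 3 highest members in each library, in this order. Next came Nbr1 with the basal label and Map1lc3a with the luminal label, and Ulk1 was lowest with the basal label and Becn1 with the luminal label. Some neighbours in the order could not be separated by counting error. These were Map1lc3b, Atg5 and Becn1 in the basal-labelled DMSO library. In the luminal-labelled DMSO library Nbr1 could not be separated from Map1lc3a or from Map1lc3b, nor Wipi1 from Atg5, while Map1lc3a and Map1lc3b had separate intervals. In the luminal-labelled baicalin library the pairs were Nbr1 and Wipi1, and Atg5 and Becn1. The order also depended on the length used. Over its longest coding transcript of 2633 bases rather than all 7517 exon bases, Map1lc3b in the basal-labelled DMSO library moved from 17.7 to 50.6 and from rank 7 to rank 3, and in the luminal-labelled DMSO library Gabarap at 139 stood beside Sqstm1 at 138. This choice of length was added after seeing the data, and it leaves ratios between libraries as they are.

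Around the 10 genes, 86 other autophagy genes were tested, from a list by stage. With baicalin 63 were higher and 23 lower under the basal label, at a median log2 difference of 0.17, beside 50.9% of all genes higher. Under the luminal label 56 were higher and 30 lower, at a median of 0.08, beside 45.6% of all genes higher. Of the 86, 7 passed the threshold upwards under the basal label, or 8.14% beside 2.15% of all genes, and 0 downwards, beside 3.33%. Under the luminal label 3 passed upwards, or 3.49% beside 2.37%, which is near the background, and 0 downwards, beside 1.59%. The gap under the basal label depended on the pseudocount. Without one, 7 of the 86 again passed upwards, but 1693 of the 17787 genes did, instead of 383. The share of the 86 was then no higher than that of all genes. This list was also chosen with earlier results of these data known.

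The receptors with the largest differences in their stage were Stbd1 and Bnip3. Stbd1, a receptor for glycogen, was at 13.0 and 58.1 FPKM under DMSO and baicalin with the basal label and at 5.61 and 19.4 FPKM with the luminal label. Bnip3, a mitophagy receptor, was at 4.45 and 10.8 FPKM and at 5.61 and 4.49 FPKM, respectively. It has near-identical copies, listed at 0.366 FPKM or less, that make its counts uncertain. Of 17 other cargo receptors 10 were higher under the basal label, or 58.8% beside 50.9% of all genes, and 8 under the luminal label, or 47.1% beside 45.6%. The threshold was passed upwards by 2 of the 17 under the basal label, beside 2.15% of all genes, and by 1 under the luminal label, beside 2.37%.

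Of 9 other genes of membrane growth and 13 of fusion, 1 each passed the threshold upwards under the basal label, beside 2.15% of all genes. Under the luminal label 1 of the 9 and 0 of the 13 did, beside 2.37%. A count of 1 in sets this small cannot be read as a property of a stage. Atg9b, a lipid scramblase of the vesicles that seed the membrane, was at 41.9 and 137 FPKM under DMSO and baicalin with the basal label and at 5.53 and 26.4 FPKM with the luminal label, the largest ratio named here at 4.79 (4.31 to 5.33). Wdr45, which like Wipi1 binds phosphoinositide, was at 4.08 and 5.69 FPKM and at 6.17 and 6.16 FPKM. Its exons share 818 of 3310 bases with Gm45208 on the same strand, which was at 0 FPKM, so its level is uncertain. Tecpr1, a tether of autophagosomes and lysosomes, was at 2.41 and 9.47 FPKM with the basal label and at 2.31 and 2.75 FPKM with the luminal label. Epg5, another tether, was at 4.98 and 9.10 FPKM and at 4.62 and 7.06 FPKM. Of the 13 fusion genes 12 were higher under the basal label and 10 under the luminal label, beside 50.9% and 45.6% of all genes.

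The partners of the core members stayed below the threshold. Among 4 other genes of the initiation complex, Atg101 had ratios of 0.741 (0.665 to 0.825) and 0.811 (0.726 to 0.906) under the basal and luminal labels, and Atg13 of 1.15 (1.06 to 1.26) and 1.15 (1.05 to 1.26). In the PI3-kinase complex of Becn1, Rubcn, an inhibitor of autophagosome maturation, had ratios of 1.63 (1.51 to 1.76) and 1.5 (1.36 to 1.66), and Nrbf2 of 1.42 (1.22 to 1.66) and 0.908 (0.789 to 1.04). Of 7478 Rubcn exon bases, 171 overlap Fyttd1 on the opposite strand, which was between 21.7 and 25.0 FPKM. Nrbf2 has near-identical copies at 0.0561 FPKM or less. Of 10 conjugation genes 9 were higher under the basal label and 7 under the luminal label, beside the same 50.9% and 45.6% of all genes. Atg12, the partner of Atg5, had ratios of 1.56 (1.49 to 1.63) and 1.02 (0.970 to 1.06), and Atg10, the enzyme that joins the pair, of 1.61 (1.26 to 2.07) and 1.02 (0.810 to 1.29). The fragments estimated for Atg12 were off a whole number by between 0.106 and 0.458, so the intervals of Atg12 are approximate. Gabarapl2 had ratios of 1.17 (1.06 to 1.28) and 1.003 (0.907 to 1.11), and it too has near-identical copies, at 0.592 FPKM or less.

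Of the genes upstream, those with the largest differences in their stage were the following. Sesn2, a stress-induced inhibitor of mTORC1, was at 6.45 and 28.1 FPKM under DMSO and baicalin with the basal label and at 10.6 and 26.2 FPKM with the luminal label. Prkaa2, a catalytic subunit of AMPK, was at 3.95 and 9.18 FPKM and at 3.08 and 3.11 FPKM. Ddit3, a transcription factor of the integrated stress response also called CHOP, was at 9.76 and 38.9 FPKM and at 12.7 and 24.6 FPKM, and Atf4, which lies upstream of it, at 141 and 224 FPKM and at 117 and 195 FPKM. Of these 4, Sesn2 alone passed the threshold under both labels, as Sqstm1 did. Ddit3 shares 68 of its 1713 exon bases with Mars on the opposite strand, which was between 17.3 and 28.3 FPKM. Of 16 genes of mTORC1 and AMPK control 9 were higher under the basal label and 11 under the luminal label, beside 50.9% and 45.6% of all genes. Upwards past the threshold were 2 of the 16 and 1 of the 16, beside 2.15% and 2.37%. Of 9 transcription factors 7 were higher under each label, and 1 and 0 passed upwards.

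**Figure D5:**
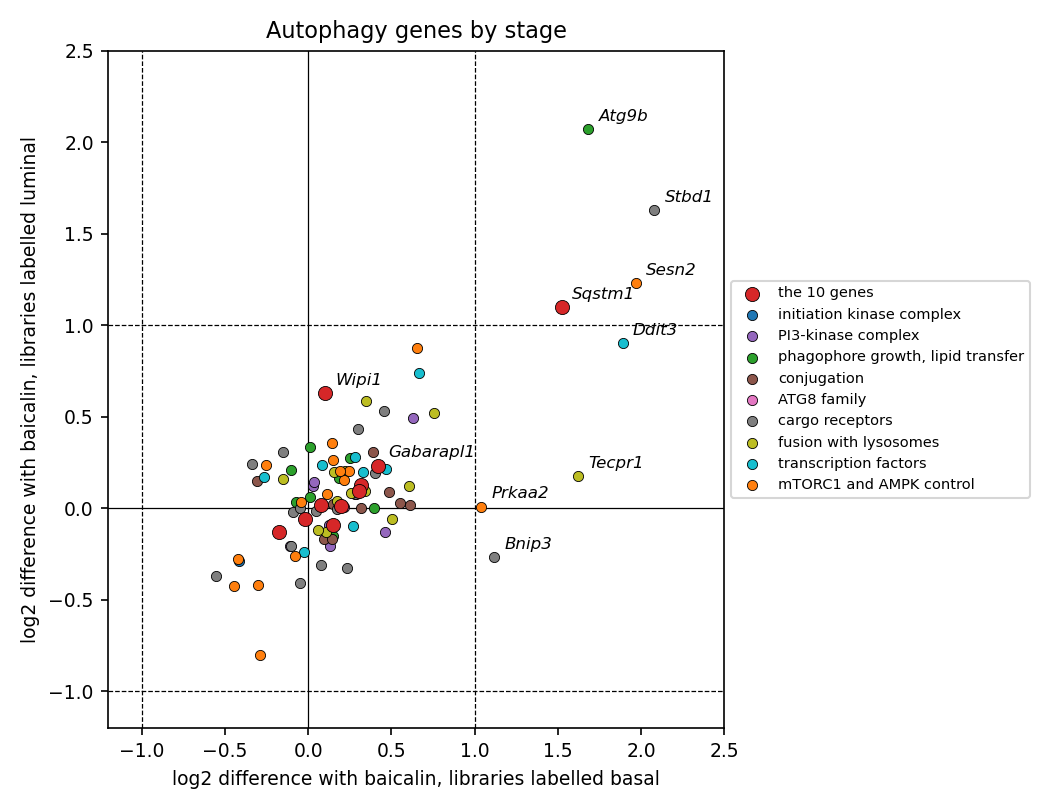
Log2 difference with baicalin in the libraries labelled basal (horizontal) and luminal (vertical) for the 10 genes (large red points) and the 86 other autophagy genes (coloured by stage); dashed lines mark a difference of 1. Sqstm1 (1.52, 1.10) lies past both lines with Atg9b, Stbd1 and Sesn2, and Bnip3, Tecpr1, Prkaa2 and Ddit3 lie past the basal line alone.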

How the data were processed

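RNA was sequenced in 4 libraries of Matrigel-cultured mammary cells. The authors enriched mRNA with oligo(dT), built stranded libraries, mapped them with HISAT2, counted with featureCounts on a GRCm38 Ensembl annotation and deposited FPKM; the submitters' notes also name mm8 and Bowtie 0.12.2. The strand setting of counting is not given in the sources used here, so overlapping genes are uncertain. Exon lengths came from GENCODE release 21, and FPKM times length and the estimated depth gave fragments. Log2 differences used a pseudocount of 1 on genes above 0 in all 4 libraries. The t-test of the study's methods needs replicates and was not run.

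The members and lists were chosen with earlier results of these data known. Named were all members, the 2 genes per stage with the largest difference with baicalin and 5 FPKM or more in any library, the 3 nearest profiles of 2 members, and markers. The other AMPK genes of the list were named as well. The alternatives were other pseudocounts, filters, TPM, centring, protein-coding genes and thresholds. Copies were found with blastn 2.17.0 (at least 95% identity over 200 bases). Scripts ran under Python 3.11.15 with scipy 1.17.1, matplotlib 3.10.9, pandas 2.3.3 and numpy 2.4.6, and were tested on simulated data. Libraries of E2 + PG treatment were not analysed here. One immune marker is not reported here.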

Additional observations from a re-analysis of the deposited data

Results flagged for a closer look

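Some ratios pointed in opposite directions in the 2 comparisons of a kind. None of these differences was tested, since each group has 1 library.

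With baicalin over DMSO, Map1lc3b had ratios of 1.11 under the basal and 0.935 under the luminal label, and Bnip3 of 2.44 and 0.80. With the luminal over the basal label, Wipi1 had ratios of 0.916 under DMSO and 1.34 under baicalin, and Gabarap of 1.08 and 0.937. Ratios of the same kind were 1.26 and 0.414 for Bnip3, 1.29 and 0.838 for Atg12, 1.64 and 0.932 for Sesn2, and 1.30 and 0.632 for Ddit3.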

How the results depend on the processing

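Across the alternatives, Sqstm1 kept its direction in all 4 comparisons, with log2 differences between 1.49 and 1.53 for baicalin under the basal label, 1.10 and 1.12 under the luminal label, and -0.998 and -0.885 under DMSO and -1.38 and -1.28 under baicalin for the luminal against the basal label. Of 40 member values 1 changed sign, that of Atg5 for the labels under baicalin, from 0.02 to -0.04 with TPM. The threshold moved the counts of members. At 2 on the log2 scale 0 were higher with baicalin under either label, and 0 were lower in the luminal-labelled baicalin library. At 1.5-fold 2 of the 10 were higher with baicalin under the luminal label, beside 1121 of the 17787 genes. For the labels under DMSO 3 were higher and 1 lower, beside 2046 and 1769 genes. For the labels under baicalin 1 was higher, beside 1902 genes. Scaled to TPM, the median of the members for the labels under DMSO was -0.062 instead of 0.05. Counts over all genes depended more on the settings. Higher and lower with baicalin under the basal label were 383 and 592 genes, but 1693 and 2054 without a pseudocount, 1123 and 1302 with 0.1, 696 and 1002 with TPM, 1288 and 1384 at 1.5-fold and 41 and 132 at a threshold of 2. Under the luminal label they were 421 and 282, and 1559 and 1537, 1052 and 913, 718 and 578, 1121 and 1069, and 60 and 46 in the same order. For the luminal against the basal label they were 837 and 686 under DMSO, and 2872 and 1926, 2027 and 1467, 1306 and 1279, 2046 and 1769, and 185 and 150. Under baicalin they were 932 and 531, and 2632 and 2003, 2030 and 1327, 1439 and 1083, 1902 and 1682, and 242 and 59. Of the 86 other autophagy genes 13 were higher with baicalin at 1.5-fold under the basal label, beside 1288 of the 17787 genes. Under the luminal label 7 were higher and 1 lower, beside 1121 and 1069 genes. At a threshold of 2 there was 1 higher under each label, beside 41 and 60 genes. Scaling to TPM kept the pseudocount at 1 on larger values, so the pseudocount also weighed less in that setting. The cause of these moves was not tested. Within a comparison no paired analysis was possible, because each group has 1 library and the groups compared share a single replicate number. Leaving out a library would leave a group empty. A fit of all 4 libraries with cell label and treatment as terms would pair baicalin with DMSO within each label. It would leave 1 residual degree of freedom and was not run. Where fragments are few, as for Map1lc3a, counting error limits what can be seen.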

Other observations

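Profiles over the 4 libraries were compared for the 2 members with the largest difference with baicalin, by Euclidean distance of centred log2(FPKM + 1) among 7599 protein-coding genes with a mean of at least 5 FPKM. Nearest to Sqstm1 were Ccng1 at 0.22, Plk2 at 0.25 and Smurf1 at 0.27. Ccng1, a cyclin, was at 53.1 and 131 FPKM under DMSO and baicalin with the basal label and at 27.2 and 64.2 FPKM with the luminal label. Plk2, a polo-like kinase, was at 88.3 and 226 FPKM and at 50.5 and 114 FPKM. Smurf1, a ubiquitin ligase, was at 32.1 and 72.0 FPKM and at 14.9 and 32.6 FPKM. Nearest to Wipi1 were Alg3 at 0.11, Shmt2 at 0.12 and Pld3 at 0.12, each with its highest level in the luminal-labelled baicalin library, at 8.54, 38.8 and 42.6 FPKM. The distances are a description over 4 libraries.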
